A study of Homo sapiens with 6 samples.

Results

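Lumican, related proteoglycans and the machinery that senses bacterial lipopolysaccharide (LPS) were examined as 10 genes chosen by symbol. LUM, DCN and BGN encode lumican, decorin and biglycan. LBP, CD14, TLR4 and LY96 encode the proteins that carry and bind LPS. The others were the adaptor genes MYD88, TIRAP and TICAM1. All 10 were found among 58515 rows with a gene symbol of their own. All RNA came from xenografts of a single human liver cancer cell line, MHCC97L. The rhLUM group (3 libraries) received recombinant human lumican, and the Ctrl group (3 libraries) did not. The labels give no dose, route, duration or host animal, and do not say whether libraries of a group are separate tumours. P-values therefore measure the spread between these libraries, which may be technical.

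Lumican belongs to the small leucine-rich proteoglycans, and the secreted protein binds collagen fibrils and shapes their spacing. Decorin and biglycan form another class of the same family. LPS is extracted from bacterial membranes by LBP, passed to CD14 and loaded onto the receptor pair of TLR4 and MD-2, the product of LY96. TIRAP and MYD88 then relay the signal from the cell surface towards NF-kB, and TICAM1 (TRIF) relays it from endosomes towards interferon genes and NF-kB. In mice, lumican has been reported to bind CD14 and to aid the sensing of LPS, and biglycan and decorin can act as ligands of toll-like receptors. LBP is an acute-phase protein made mainly by hepatocytes, while CD14 is best known from monocytes and macrophages.

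The values are TPM, a unit of transcript abundance, and are scaled for transcript length, so levels of different genes can be set side by side. TPM keeps no record of sequencing depth, which is unknown. The mitochondrial share of TPM was 14.3 to 14.5% in the rhLUM libraries and 20.5 to 20.7% in the Ctrl libraries, a difference that changes the share left for all other genes. The test (limma on log2(TPM + 1), adjusted p under 0.05) was run on the 14781 genes averaging 1 TPM or more, of which 66.8% passed, 44.5% as higher and 22.3% as lower with rhLUM. Their median log2 fold change was 0.16. Median-of-ratios scaling, which centres the libraries on their typical gene, moved that median by -0.18 and gave 4821 genes higher and 4825 lower, against 6571 and 3299 as deposited. Rescaling without mitochondrial genes moved it by -0.10.

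With rhLUM, LUM, TLR4 and TIRAP rose while LBP and DCN fell. LY96, MYD88 and TICAM1 did not pass the test, and BGN and CD14 lay under 1 TPM on average and were not tested. Of the 8 tested genes, 3 were therefore higher and 2 lower, against 44.5% and 22.3% of all genes, or 5 of 8 beside 66.8% in either direction. The groups did not overlap in 6, of which 4 were higher and 2 lower, beside 71.4% of all genes tested (47.0% higher and 24.3% lower). These shares are near the background. The members differed in size of change: LBP was the second lowest of all genes tested by fold change, while only 3.80% of genes changed less than MYD88. LBP passed the filter only through its Ctrl libraries. The median of the 8 genes was 0.13, beside 0.16 for all genes.

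**Figure D1:**
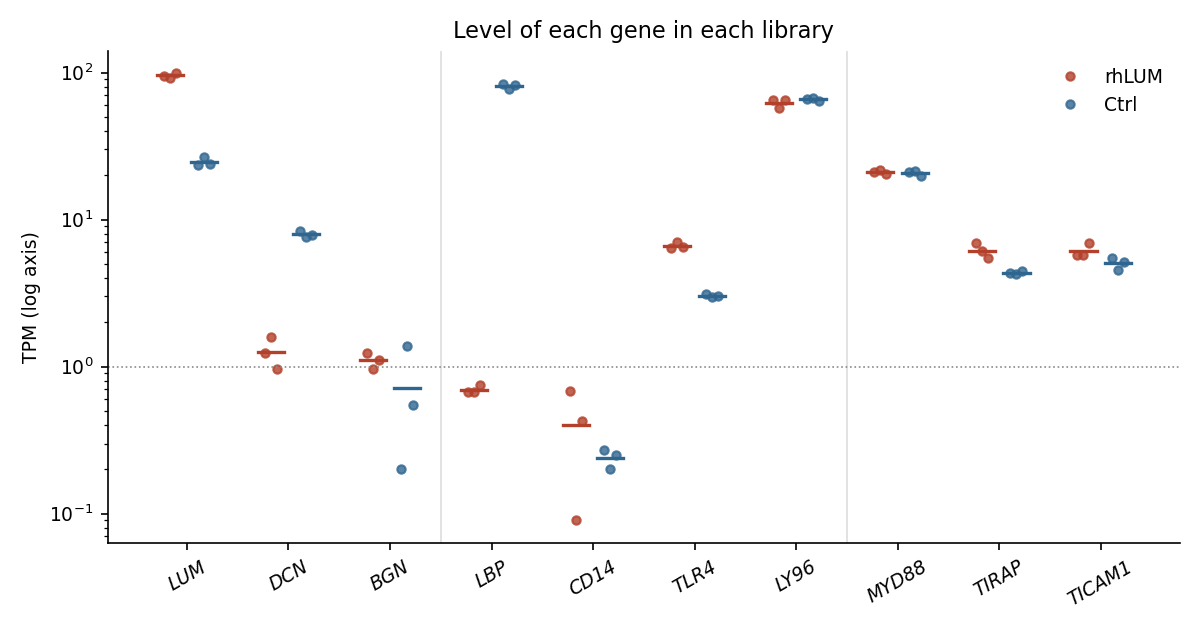
TPM (log axis) of each of the 10 genes in each rhLUM and Ctrl library (points), with group means (bars) and a dotted line at 1 TPM. LUM stands at 92.06 to 99.14 TPM in rhLUM and 23.62 to 26.47 in Ctrl, and LBP at 0.67 to 0.75 in rhLUM and 77.69 to 83.10 in Ctrl.

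The order of levels differed between the groups. In rhLUM tumours LUM (95.5 TPM) stood above LY96 (62.4) and MYD88 (21.1). TLR4, TIRAP and TICAM1 followed at 6.65, 6.16 and 6.15 TPM, with overlapping libraries. DCN (1.26) and BGN (1.10) overlapped each other, as did LBP (0.70) and CD14 (0.40). In Ctrl tumours LBP (80.9 TPM) stood highest, above LY96 (65.9), LUM (24.7), MYD88 (20.7), DCN (7.96), TICAM1 (5.07), TIRAP (4.33) and TLR4 (3.04), each clear of the next. BGN (0.71) and CD14 (0.24) overlapped at the bottom.

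LUM, the gene for the protein that was supplied, had 95.41, 92.06 and 99.14 TPM in the rhLUM libraries, against 23.62, 26.47 and 23.95 TPM in the Ctrl libraries. All rhLUM values were high and close together, and the groups did not overlap. The mean level in rhLUM was 3.87 times that in Ctrl, and the log2 fold change of 1.91 (SE 0.05, limma adjusted p = 2.89e-07) ranked 66th from the top of all genes tested. LUM stood above 90.0% of tested genes in rhLUM and above 67.9% in Ctrl. The protein given carries no RNA, so the level of LUM does not check the labels.

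DCN, whose product decorin binds collagen and several growth factors, had 1.24, 1.59 and 0.96 TPM in the rhLUM libraries, against 8.34, 7.65 and 7.88 TPM in the Ctrl libraries. Every rhLUM library was low and the groups did not overlap. DCN fell by 1.99 on the log2 scale (SE 0.12, limma adjusted p = 8.20e-06), close in size and opposite in sign to LUM. Within each library the ratio of LUM to DCN, which no scaling of the library changes, was 76.9, 57.9 and 103 in rhLUM and 2.83, 3.46 and 3.04 in Ctrl. An exact two-sided permutation test of the log2 ratio gave p = 0.1, the smallest that 3 against 3 libraries allow. BGN, the gene of biglycan, had 1.24, 0.96 and 1.11 TPM in rhLUM and 0.20, 1.38 and 0.55 TPM in Ctrl, so the groups overlapped and the Ctrl libraries spread widely. BGN shares 578 bases with HAUS7 on the other strand (35.8 TPM in rhLUM and 42.7 in Ctrl), and the labels do not say whether counting used the strand.

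LUM and DCN are neighbours on chromosome 12 (GRCh38, GENCODE release 29, both protein coding on the minus strand). LUM spans 91102629 to 91111831 and DCN spans 91140484 to 91183123, a gap of 28652 bases. On the other side lie KERA and EPYC, which encode the related proteoglycans keratocan and epiphycan. KERA was listed at 0, 0.10 and 0.06 TPM in rhLUM and at 0.03, 0 and 0 in Ctrl, and EPYC at 0 in all 6 libraries. LUM was therefore the member of this cluster that rose, between a gene near 0 and a gene that fell. Beyond DCN, the next protein-coding genes BTG1 (-0.63), CLLU1OS (-2.90) and PLEKHG7 (-1.35) were all lower on the log2 scale, and ATP2B1, on the far side of EPYC, was higher (0.97; limma adjusted p at most 3.10e-04 for these 4). CLLU1OS (0.51 TPM in rhLUM and 10.1 in Ctrl) and PLEKHG7 (0.19 in rhLUM and 2.03 in Ctrl) passed the filter only through Ctrl, so these low genes could be tested only because they were high there. BTG1, CLLU1OS, PLEKHG7 and ATP2B1 lie 1028446 to 1591011 bases from LUM. Of all genes tested, 66.8% passed in either direction. The neighbours were taken by position, and were added after their values were seen.

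**Figure D2:**
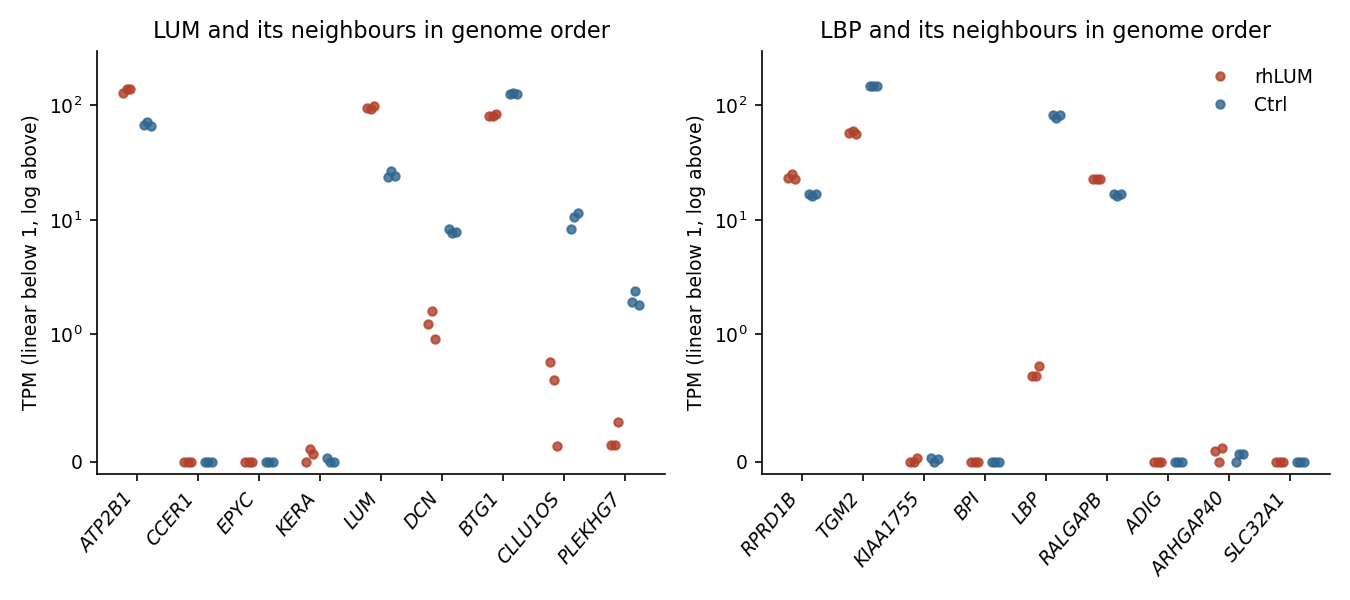
TPM (axis linear below 1 and logarithmic above) of LUM and LBP and up to 4 protein-coding neighbours on each side in genome order, with 1 point for each rhLUM and Ctrl library. LUM (95.5 TPM in rhLUM, 24.7 in Ctrl) lies between EPYC and KERA near 0 and DCN (1.26 in rhLUM, 7.96 in Ctrl), and BPI beside LBP is listed at 0.

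Of the 15 other small leucine-rich proteoglycans listed, all were found and 14 had a mean under 1 TPM. TSKU, the gene of tsukushi, was the exception and rose, with 43.50, 42.97 and 43.39 TPM in rhLUM against 29.57, 26.38 and 29.03 TPM in Ctrl (log2 fold change 0.60, limma adjusted p = 3.85e-05). Among the genes under 1 TPM, ASPN (asporin) had 0.63, 0.91 and 1.04 TPM in rhLUM and 0.22, 0.28 and 0.20 in Ctrl. ECM2 and FMOD (fibromodulin) also had all rhLUM libraries above all Ctrl libraries, at means of 0.45 and 0.33 TPM in rhLUM and 0.23 and 0.097 in Ctrl, too low to be tested. All others of the 15 under 1 TPM overlapped between the groups, with EPYC and OPTC listed at 0 throughout. Among all genes tested, 71.4% did not overlap, 47.0% as higher.

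Of 9 tested genes for reported partners of lumican, 5 rose and 2 fell (4 and 2 under median-of-ratios scaling), or 55.6% and 22.2% beside 44.5% and 22.3% of all genes, shares near the background. Their median was 0.51 beside 0.16 for all genes. ITGB1 and ITGA2, the subunits of a collagen-binding integrin, had log2 fold changes of 0.79 and 0.62. The TGF-beta receptor gene TGFBR1 (0.75) and the membrane protease gene MMP14 (0.70) also rose. The death receptor gene FAS fell (-0.87), as did CAV1 (-0.05), the caveolin gene, a call that was lost without the variance trend (limma adjusted p = 0.224) and without the filter (0.0832). COL1A1, a collagen chain gene, passed as higher at a low level (5.11 ± 0.92 TPM in rhLUM and 3.30 ± 0.73 in Ctrl, SD, n = 3). Its call was lost under median-of-ratios scaling (limma adjusted p = 0.0938), on rescaling without mitochondrial genes, without the filter, with the replicate block, and on leaving out rhLUM library A or C or Ctrl library A or C (limma adjusted p = 0.0705 to 0.0873).

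LBP, the plasma protein that delivers LPS to CD14, had 0.67, 0.67 and 0.75 TPM in the rhLUM libraries, against 83.10, 77.69 and 81.79 TPM in the Ctrl libraries. The rhLUM libraries were uniformly near the bottom of the range and the groups did not overlap. The mean in Ctrl was 116 times that in rhLUM, and the log2(TPM + 1) fold change, which understates it, was -5.59 (SE 0.06, limma adjusted p = 4.90e-09). LBP stood above 2.27% of tested genes in rhLUM and above 89.2% in Ctrl. It lies on chromosome 20 (38346356 to 38377023, GRCh38, plus strand, protein coding), 8850 bases from BPI, which encodes a related LPS-binding protein of neutrophils. BPI was listed at 0 in all 6 libraries. RALGAPB on the other side of LBP, the nearest expressed neighbour, rose (22.7 ± 0.13 TPM in rhLUM and 16.5 ± 0.44 in Ctrl, SD, n = 3, log2 fold change 0.44, limma adjusted p = 8.89e-05). Beyond BPI, TGM2 fell like LBP (57.9 TPM in rhLUM and 148 in Ctrl, log2 fold change -1.34, limma adjusted p = 1.10e-07). RPRD1B, beyond TGM2, rose (0.48), so expressed neighbours went both ways. Of 9 tested liver markers, 7 rose and 1 fell, beside 44.5% and 22.3% of all genes. The one that fell was SERPINA1 (208 ± 5.32 TPM in rhLUM and 379 ± 2.27 in Ctrl, SD, n = 3), which like LBP is an acute-phase gene. The part of these markers in the level of LBP was not tested.

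CD14, the co-receptor that takes LPS from LBP, had 0.68, 0.09 and 0.43 TPM in rhLUM and 0.27, 0.20 and 0.25 TPM in Ctrl. The groups overlapped, and the rhLUM libraries held both the highest and the lowest value. The level was too low to be tested under the filter, and without it the log2 fold change was 0.15 (limma adjusted p = 0.519). Myeloid markers stood beside it as follows: 8 of 12 were under 1 TPM in every library, C1QA was listed at 0 throughout, PTPRC averaged 0.20 TPM in rhLUM and 0.12 in Ctrl, and TYROBP was at 0 in rhLUM and 0.27 in Ctrl. The summed level of the 12 was 306 to 309.7 TPM in rhLUM and 227.5 to 230.4 in Ctrl, mostly from LYZ and CD68. Without LYZ it was 65.3 to 68.2 TPM in rhLUM and 47.2 to 49.6 in Ctrl. The 4 tested myeloid markers were split: LYZ (0.42) and CD68 (0.77) rose, while ITGAM, an integrin gene of myeloid cells, fell (3.84 TPM in rhLUM and 8.01 in Ctrl, -0.92, limma adjusted p = 0.00172). SPI1, a myeloid transcription factor gene, also fell (3.33 TPM in rhLUM and 5.25 in Ctrl, -0.53, limma adjusted p = 0.0171), a call lost without the filter (0.0514) and without Ctrl library B (0.0570).

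TLR4, the signalling receptor for LPS, had 6.40, 7.08 and 6.46 TPM in the rhLUM libraries, against 3.13, 2.98 and 3.01 TPM in the Ctrl libraries. All rhLUM values lay above all Ctrl values, at a mean 2.19 times as high. The log2 fold change was 0.92 (95% interval 0.73 to 1.10, limma adjusted p = 4.16e-05). TLR4 lies on chromosome 9 (117704175 to 117724730, GRCh38, plus strand, protein coding), within another annotated gene of the same strand, AL160272.2. They share 20556 bases, and no separate level of AL160272.2 was used here. Reads shared between them could change the TLR4 value and the ratios to TLR4, whatever the strand setting. LY96, whose product MD-2 holds LPS in the pocket beside TLR4, had 64.65, 57.51 and 65.15 TPM in rhLUM and 66.23, 67.65 and 63.93 TPM in Ctrl. These values overlapped, and the log2 fold change of -0.08 (95% interval -0.21 to 0.05, limma adjusted p = 0.234) did not pass. It passed as lower under median-of-ratios scaling (-0.28, limma adjusted p = 0.00282) and on rescaling without mitochondrial genes (-0.19, limma adjusted p = 0.0173).

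The balance of the receptor pair differed between the groups. LY96 stood at 10.1, 8.12 and 10.1 times TLR4 in the rhLUM libraries and at 21.2, 22.7 and 21.2 times in the Ctrl libraries. Transcripts of MD-2 exceeded those of TLR4 in every library, and by less in each rhLUM library than in any Ctrl library (exact two-sided permutation p = 0.1, the smallest possible here). LBP to LY96 gave 0.0104, 0.0117 and 0.0115 in rhLUM and 1.25, 1.15 and 1.28 in Ctrl.

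Among the adaptors, TIRAP, which brings MYD88 to the membrane, had 6.90, 6.10 and 5.47 TPM in rhLUM and 4.30, 4.24 and 4.46 TPM in Ctrl. The groups did not overlap, and TIRAP rose by 0.42 on the log2 scale (SE 0.09, limma adjusted p = 0.00549). The rise was 0.25 under median-of-ratios scaling, near the threshold (limma adjusted p = 0.0462). Antisense genes overlap TIRAP over 1333 and 4548 bases, so reads of the opposite strand could add to its value. MYD88, the adaptor shared by nearly all toll-like receptors and the interleukin-1 receptors, had 21.14, 21.79 and 20.43 TPM in rhLUM and 21.07, 21.26 and 19.73 TPM in Ctrl. Its libraries overlapped (log2 fold change 0.03, 95% interval -0.09 to 0.15, limma adjusted p = 0.631), though it passed as lower under median-of-ratios scaling (-0.16, limma adjusted p = 0.0276). TICAM1 had 5.74, 5.77 and 6.95 TPM in rhLUM and 5.50, 4.53 and 5.17 TPM in Ctrl. Its groups did not overlap, yet the difference of 0.24 (95% interval -0.005 to 0.48, limma adjusted p = 0.0763) missed the threshold. MYD88 exceeded TLR4 by 3.30, 3.08 and 3.16 times in rhLUM and by 6.73, 7.13 and 6.55 times in Ctrl.

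**Figure D3:**
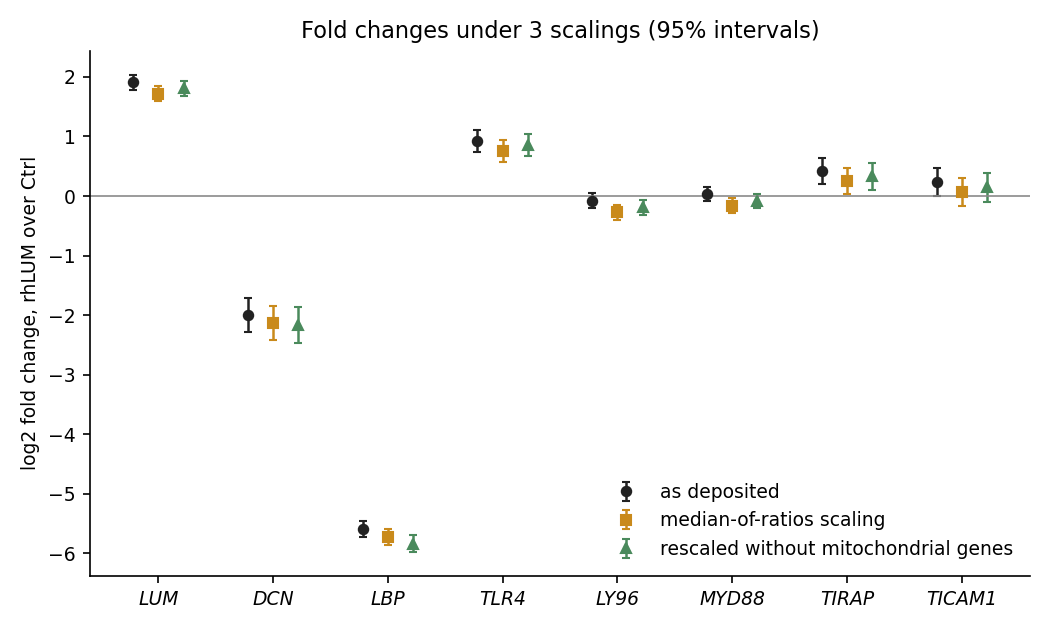
Log2 fold changes (rhLUM over Ctrl) of the 8 tested genes with 95% limma intervals, as deposited and under the other scalings. LUM (1.91), TLR4 (0.92), DCN (-1.99) and LBP (-5.59) keep their side of 0 under each, while LY96 (-0.08) and MYD88 (0.03) move to -0.28 and -0.16 under median-of-ratios scaling.

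The remaining TIR adaptors were also measured. TICAM2, which links TLR4 to TICAM1, fell, with 0.92, 0.34 and 0.94 TPM in rhLUM against 2.40, 2.25 and 1.95 TPM in Ctrl (log2 fold change -0.90, limma adjusted p = 0.00429). SARM1, which can restrain TICAM1, and PIK3AP1, which links receptors to PI3 kinase, rose by 0.60 and 0.47 on the log2 scale. TICAM2 is a low-level gene with a read-through transcript from its neighbour TMED7, so its value is less certain. TICAM2 passed the filter only through Ctrl (means of 0.73 TPM in rhLUM and 2.20 in Ctrl), and SARM1 only through rhLUM (2.02 in rhLUM and 0.99 in Ctrl).

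Promoter sequence was available from RefSeq (GRCh38.p14) for 5 of the 10 genes: BGN, CD14, TLR4, MYD88 and TICAM1. No entry was used for LUM, DCN, LBP, LY96 and TIRAP. The 250 bases before the RefSeq start are shown for TLR4, the receptor gene that rose, and for TICAM1, its adaptor that did not pass, because they differ in motif content. They lie at chr9:117704153-117704402 (plus strand) and chr19:4831713-4831962 (minus strand). Capitals mark matches, on either strand, to an NF-kB-like motif (GGG, 5 bases of any kind, then CC), a STAT motif (TTC, 3 bases of any kind, then GAA) or an AP-1 motif (TGANTCA).
TLR4: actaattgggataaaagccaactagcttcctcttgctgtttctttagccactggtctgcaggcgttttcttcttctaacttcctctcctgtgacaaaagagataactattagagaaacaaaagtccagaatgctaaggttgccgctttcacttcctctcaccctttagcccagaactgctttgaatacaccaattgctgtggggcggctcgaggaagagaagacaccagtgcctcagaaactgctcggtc
TICAM1: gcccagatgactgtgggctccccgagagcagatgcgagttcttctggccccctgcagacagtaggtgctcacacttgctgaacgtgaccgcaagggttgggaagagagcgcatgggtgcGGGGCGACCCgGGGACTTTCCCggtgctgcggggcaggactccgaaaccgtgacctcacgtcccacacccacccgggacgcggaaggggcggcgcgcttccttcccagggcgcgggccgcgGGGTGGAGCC
The TLR4 window held no match to any of the 3 motifs. GENCODE places the gene start inside the window for TLR4, MYD88 and BGN, and the whole CD14 window inside the CD14 gene. For these genes a match in the window need not lie upstream of the GENCODE start. The TICAM1 window held 4 matches to the NF-kB-like motif, of which a pair at -120 to -111 and -119 to -110 from the start overlap on opposite strands. MYD88 held 2 such matches and 1 STAT match, CD14 held 1 STAT and 1 AP-1 match, and BGN held none. Of 35116 promoter windows of the same length, 54.4% held the NF-kB-like motif, 6.57% the STAT motif and 6.57% the AP-1 motif. A match in so short a pattern is a description of the sequence.

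Around the 10 genes, 77 other symbols of LPS sensing and TLR4 signalling were listed, of which 76 were found and 62 tested. With rhLUM 31 rose, 20 fell and 11 did not pass. The shares were 50% higher and 32.3% lower, beside 44.5% and 22.3% of all genes. Their median of 0.18 was near that of all genes. Median-of-ratios scaling gave 25 higher and 24 lower (40.3% and 38.7%), beside 4821 and 4825 of 14822 genes.

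Of 7 other toll-like receptors and accessory genes tested, 3 rose and 2 fell (2 and 2 under either rescaling, since the call of UNC93B1 was lost). These were 42.9% and 28.6%, beside 44.5% and 22.3% of all genes, shares near the background. TLR1 and TLR6, which pair with TLR2 to sense lipopeptides, had log2 fold changes of 1.15 and 0.97. TLR1 had 22.3 ± 0.52 TPM in rhLUM and 9.53 ± 0.74 in Ctrl, and TLR6 had 7.65 ± 0.60 in rhLUM and 3.40 ± 0.22 in Ctrl (SD, n = 3). TLR1 and TLR6 are close in sequence, so reads may be shared between them. In the annotation TLR6 (chromosome 4, 38823715 to 38856817) also lies within the span of TLR1 (38790677 to 38856817), so their rises may not be independent. TLR2 was near 0, at 0.010 TPM in rhLUM and 0.017 in Ctrl. The scavenger receptor gene CD36 fell (-0.85), and so did HSP90B1 (-0.13), the chaperone that folds toll-like receptors.

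Of the 18 genes of the MYD88 arm, all tested, 13 rose and 2 fell (13 and 4 under median-of-ratios scaling), or 72.2% and 11.1% beside 44.5% and 22.3% of all genes. Their median was 0.43 beside 0.16 for all genes. UBE2V1 (0.70) and UBE2N (0.40), which together build lysine-linked ubiquitin chains, IRAK1 (0.46), the kinase recruited by MYD88, and CHUK (0.80), a subunit of the IkB kinase, had the smallest p-values. IRAK1 had 195 ± 3.92 TPM in rhLUM and 142 ± 2.75 in Ctrl (SD, n = 3). The genes that fell were PELI1 (-0.32), a ubiquitin ligase, and MAP2K6 (-0.74), a kinase upstream of p38, which were named after their values were seen.

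Of the 10 genes of the TICAM1 arm, 6 rose and 2 fell, beside 44.5% and 22.3% of all genes. This balance depended on scaling: 2 rose and 3 fell under median-of-ratios scaling, and 4 and 3 on rescaling without mitochondrial genes. FADD (0.54), a death-domain adaptor, rose. IRF7 (-0.77), a transcription factor of interferon genes, and IKBKE (-0.58), a kinase that activates such factors, fell. TANK, which scaffolds that kinase, was at 0.22 and its call was lost under median-of-ratios scaling (0.03).

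Negative regulators were split, with 6 higher and 6 lower of 14 tested (5 and 6 under median-of-ratios scaling). These were 42.9% each way, beside 44.5% higher and 22.3% lower of all genes. The 3 changes of over 1 on the log2 scale were falls. SOCS1, a suppressor of cytokine signalling, had 0.37, 0.12 and 0.17 TPM in rhLUM and 12.05, 13.58 and 12.71 TPM in Ctrl (log2 fold change -3.50, limma adjusted p = 5.21e-07). TNFAIP3 (A20), an enzyme that edits ubiquitin chains, had 24.37, 20.62 and 22.78 TPM in rhLUM and 90.69, 87.12 and 82.67 TPM in Ctrl (-1.90, limma adjusted p = 6.91e-07). The phosphatase gene DUSP1, which is also an immediate early gene, fell by 2.00 on the log2 scale. None of these 3 overlapped between groups, beside 71.4% of all genes tested, but they were singled out here for their size of change. SOCS1 passed the filter only through its Ctrl libraries, so it could be tested only as a gene high there. TMED7 (0.60), a carrier of TLR4 in the secretory pathway, rose.

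Of 10 tested genes of LPS binding, clearance and cytosolic sensing, 1 rose and 7 fell (1 and 8 under median-of-ratios scaling), beside 44.5% and 22.3% of all genes. Their median was -0.42 beside 0.16 for all genes. GBP2 (-1.46), GBP4 (-1.82) and GBP5 (-2.60), guanylate-binding proteins that coat bacteria and help expose LPS, had the largest falls of this list. GBP4 and GBP5, at means of 0.35 and 0.29 TPM in rhLUM and 3.81 and 6.77 in Ctrl, passed the filter only through Ctrl. GBP2 had 31.53, 37.15 and 32.63 TPM in rhLUM and 92.79, 96.00 and 95.38 TPM in Ctrl, with no overlap. The exception was SCARB1 (0.66), a lipoprotein receptor that can take up LPS. Guanylate-binding proteins form a family of similar sequences, so reads may be shared among them.

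**Figure D4:**
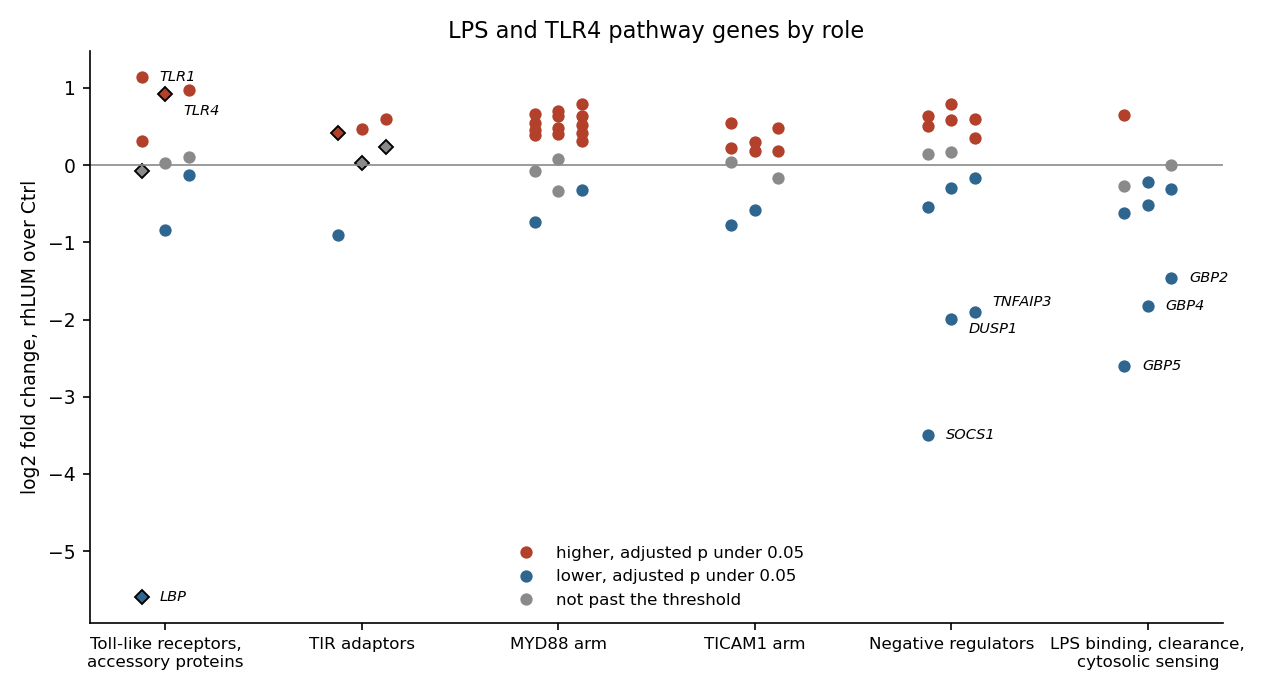
Log2 fold change (rhLUM over Ctrl) of each tested gene of the 6 role lists, with genes past the threshold coloured by direction and the members of the report outlined as diamonds. The MYD88 arm lies mostly above 0 (13 of 18 higher), and LBP (-5.59), SOCS1 (-3.50) and GBP5 (-2.60) lie lowest.

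LUM and DCN are typical fibroblast genes, so fibroblast markers were read beside them. Of 12 markers, 5 were under 1 TPM in every library, with THY1 at 0 in every rhLUM library and at most 0.030 TPM in Ctrl, and PDGFRA averaging 0.020 TPM in rhLUM and 0.0033 in Ctrl. The summed level was 45.3 to 48.4 TPM in rhLUM and 33.5 to 35.9 in Ctrl. Without SPARC, the highest, it was 10.9 to 16.1 TPM in rhLUM and 17.3 to 18.6 in Ctrl. That sum holds COL6A3 (1.93 TPM in rhLUM and 10.5 in Ctrl), which fell by more than the sum did. Of the 5 tested markers, COL6A3 was the only 1 called lower (-1.97). SPARC (0.94) and COL1A1 (5.11 TPM in rhLUM and 3.30 in Ctrl) were called higher, the latter a call lost under several alternatives. COL1A2 lay higher (0.41) but did not pass (limma adjusted p = 0.112), nor did COL3A1. The fibroblast markers other than SPARC therefore did not fall as a set. Of 3 tested endothelial markers, PECAM1 rose (0.59) and CDH5, which passed the filter only through Ctrl, fell (-1.50). In bulk tissue fewer cells of a type and less RNA per cell cannot be told apart. The part of other cells in the levels of LUM and DCN was not tested, nor was that of host transcripts, whose removal is not stated. Markers of the labelled cell type were present in part, with KRT8 and KRT18 at means of 2474 and 1150.2 TPM in rhLUM and 1060.3 and 901 in Ctrl, with ALB at 825 TPM in rhLUM and 289 in Ctrl, TF at 251 in rhLUM and 62.5 in Ctrl, and with APOA2 and GPC3 under 1 TPM in every library.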

How the data were processed

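RNA was sequenced from 6 xenograft libraries (poly-A selected, KAPA mRNA HyperPrep, paired-end, per the labels' protocols). The authors deposited TPM per gene symbol, 1 table per library, per the file headers. STAR 2.7.8, RSEM 1.2.31 and GRCh38 are named in the submitters' processing notes. No source used here states the annotation release, the strand setting or a removal of host reads. Depth is unknown, so no counting interval can be given. Of 60725 rows, 2210 were dropped because their symbol occurred more than once.

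Genes averaging 1 TPM or more were fitted with limma 3.58.1 (R 4.3.3) on log2(TPM + 1), variance trend on, group as the only term, two-sided. P-values were Benjamini-Hochberg adjusted over all 14781 genes tested, with a threshold of 0.05. Fold changes are rhLUM over Ctrl on this scale, which understates changes of low genes. The fit was tested on simulated data. Within-library ratios were compared by exact permutation. Coordinates came from GENCODE release 29 (GRCh38), matched by symbol, and promoters from RefSeq.

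The members, lists and tests were chosen with earlier results of these data known. Named were all members, per list the 4 called genes of smallest p (or all, if fewer), and the 3 genes with profiles nearest to each of LUM, DCN and LBP, of which 1 is not reported here. Genome neighbours, KRT18, further markers at or near 0, genes that moved against their list and low proteoglycans were added after their values were seen. Alternatives were median-of-ratios scaling, rescaling without mitochondrial genes, a pseudocount of 0.1, no filter, no variance trend, a replicate block and leaving out each library. The labels name no batch. Replicate letters are not stated to pair libraries.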

Additional observations from a re-analysis of the deposited data

How the results depend on the processing

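The 6 counts of calls (all genes, members and the whole LPS and TLR4 pathway, each higher and lower) were recomputed under 12 alternatives. As deposited, 3 members were higher and 2 lower. The number higher was 3 under every alternative run, and the number lower was 4 under median-of-ratios scaling, where LY96 (-0.28) and MYD88 (-0.16) passed as lower, and 3 on rescaling without mitochondrial genes, where LY96 did. The calls of LUM, DCN, LBP, TLR4 and TIRAP were kept under all 12. The limma adjusted p reached 0.0462 for TIRAP under median-of-ratios scaling and 6.05e-04 for TLR4 with the replicate block. On leaving out a library it reached 0.0198 for TIRAP and 3.44e-04 for TLR4. All others of these 6 counts lay within 1.5 times the reported ones, but within the pathway median-of-ratios scaling moved the TICAM1 arm to 2 genes higher, against 6 as deposited, and the MYD88 arm to 4 lower, against 2. Leaving out 1 library at a time gave 6187 to 6288 genes higher and 2956 to 3172 lower, and 29 to 31 pathway genes higher and 20 to 21 lower. Of 98 listed genes tested, 79 had the same call under every alternative. IRF3, called at 0.19, stood at -0.0082 under median-of-ratios scaling. With the replicate letter as a block, 6429 genes were higher and 3219 lower. Libraries with the same letter deviated from their group means with correlations of 0.029, -0.023 and 0.084 across genes, so the letters were not taken to pair them. The block changed no member's call. Levels under 1 TPM limit what can be said of BGN and CD14. Scaling shifts of about the size of -0.18 limit what can be said of LY96, MYD88 and TICAM1.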

Other observations

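Genes whose profile over the 6 libraries lay nearest to LUM, DCN and LBP were found by the root mean square distance between centred log2(TPM + 1) values. For LUM these were CEACAM6, a cell surface glycoprotein gene (distance 0.056, with 1782 ± 10.3 TPM in rhLUM and 478 ± 2.28 in Ctrl), RAP1GAP, which inactivates the small GTPase Rap1 (0.057), and the drug efflux transporter gene ABCG2 (0.058). For DCN they included PPP1R1C (0.094, with 5.51 ± 0.95 TPM in rhLUM and 26.6 ± 1.28 in Ctrl) and IL4I1, an amino acid oxidase gene (0.096). For LBP the nearest lay farther off: the complement gene C3 (0.24), the cytokine gene IL6 (0.24) and LCN2 (0.25), a siderophore-binding protein gene (SD, n = 3 throughout). IL4I1 (0.75 TPM in rhLUM and 5.68 in Ctrl) and IL6 (0.52 in rhLUM and 56.7 in Ctrl) passed the filter only through Ctrl. The distances are descriptions over 6 libraries in 2 groups, and group means fix most of each profile.

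The protein-coding genes on either side of TLR4 on chromosome 9 were read in the same way. They lie far from it, with gaps of 289104 bases for ASTN2, 1002874 for TRIM32, 2876082 for MEGF9 and 3027247 for FBXW2. Of all genes tested, 66.8% passed in either direction. TRIM32, a ubiquitin ligase gene, had 9.01 ± 0.33 TPM in rhLUM and 4.92 ± 0.36 in Ctrl (SD, n = 3; log2 fold change 0.76, limma adjusted p = 8.15e-05). TRIM32 lies on the opposite strand within ASTN2, so reads of the 2 cannot be told apart if counting ignored strand. ASTN2 had 1.97 ± 0.13 TPM in rhLUM and 1.02 ± 0.23 in Ctrl (SD, n = 3; 0.56, limma adjusted p = 0.0115). On the other side BRINP1 was listed at 0 in all libraries, CDK5RAP2 did not pass (0.01, limma adjusted p = 0.909), and MEGF9 (1.35) and FBXW2 (1.30) rose, by more than TLR4 (0.92) on the log2 scale as point values, a difference that was not tested.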
